A study of Mus musculus with 8 samples.

Results

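The interferon regulatory factors (IRFs) are DNA-binding proteins that turn signals from interferons and from sensors of microbes and damage into transcription. Their mRNA was followed here in myeloid cells from mouse brain tumors through 8 genes, Irf1, Irf2, Irf3, Irf4, Irf5, Irf7, Irf8 and Irf9, chosen by gene name from the 55450 genes of the deposited count table. Each name matched 1 row, and all 8 genes passed the filter on low counts, among 16467 genes tested. Cells were sorted from tumors of GL261, a glioma line of mouse origin implanted in the brain, in animals labelled WT, into 3 microglia libraries and 5 libraries of bone marrow-derived macrophages (BMDM), which enter tumors as blood monocytes. Both gates required F4/80 and CD11b and excluded Ly6G and high Ly6C. Microglia had low CD45 and little or no CD49d, while BMDM were CD45 positive with high CD49d. The age and sex of the mice and the number of mice behind each library are not given in the labels, so the tests weigh differences against a spread among libraries that may be technical. QuantSeq 3′ FWD libraries were sequenced, which place each read near the 3′ end of a polyadenylated transcript, and values below are CPM (counts for each 1000000 of a library, scaled with TMM factors) unless stated otherwise.

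All IRFs share an amino-terminal DNA-binding domain with a row of conserved tryptophans, and they bind repeats of the bases GAAA, as in the interferon-stimulated response element (ISRE). IRF3 and IRF7 are phosphorylated after sensing of nucleic acids and switch on the type I interferon genes, and IRF9 is the DNA-binding part of ISGF3, the complex that type I interferon activates. IRF1 is induced by interferon gamma and activates transcription, and IRF2 binds the same sites and mostly represses. IRF5 acts with MyD88 to induce inflammatory cytokines. IRF4 and IRF8, close relatives found mainly in blood cells, bind DNA with partners such as PU.1. Microglia need IRF8 to develop normally, and in mouse macrophages IRF4 takes part in alternative activation.

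The libraries held 5890406 to 16659154 counts. Reads of ribosomal RNA assigned to the gene model Gm42418 made up 14.8% to 19.8% of counts in BMDM 1 to 3. In BMDM 4 and BMDM 5 they made up 41.2% and 48.9%, and 34.0% to 47.0% in the microglia libraries. At a common depth of 4151079 counts without it and mitochondrial rRNA, 13343 genes were expected to be detected in BMDM 4 and 14536 in BMDM 5, against 17336 to 21916 in the other libraries, so BMDM 4 and BMDM 5 stand apart. The sorted populations carried their markers: 10 microglia markers summed to 1596 to 4257 CPM in microglia and 216 to 1011 in BMDM, and 10 markers of monocyte-derived macrophages to 262 to 421 and 1507 to 2537 CPM. Markers of other cells also differed. The 10 T and NK cell markers summed to 4.34 to 9.20 CPM in microglia and 15.5 to 103 in BMDM, and 8 neutrophil markers to 2.67 to 13.3 and 50.5 to 111 CPM, with no marker of either list at 0 in all libraries. In the other direction, 10 tumor and neural markers summed to 245 to 383 CPM in microglia and 95.5 to 200 in BMDM. The 6 endothelial markers summed to 29.3 to 51.4 CPM in microglia and 54.8 to 76.0 in BMDM. Their part in the results below was not tested.

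Bases before the transcription start are shown for Irf1, Irf2, Irf7 and Irf8, because Irf7 and Irf1 had the largest fitted differences among the IRFs above 20 CPM on average, Irf8 was the most abundant IRF in microglia, and Irf2 is the counterpart of Irf1. The sequences are 250 bases upstream of RefSeq starts on GRCm38.p6, with all 8 genes matched by symbol, written 5′ to 3′ on the gene's strand. Capitals mark an ISRE core (GAAA, any 2 bases and GAAA again, or the reverse complement) or the gamma-activated sequence of interferon gamma-induced genes (TTCNNNGAA, which reads the same on both strands).
Irf1, chr11:53769764-53770013, plus strand: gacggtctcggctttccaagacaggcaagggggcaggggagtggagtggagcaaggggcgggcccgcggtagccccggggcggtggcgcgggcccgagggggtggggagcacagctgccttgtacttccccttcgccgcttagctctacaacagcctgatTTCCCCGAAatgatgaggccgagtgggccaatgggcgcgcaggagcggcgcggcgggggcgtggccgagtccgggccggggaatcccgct
Irf2, chr8:46739495-46739744, plus strand: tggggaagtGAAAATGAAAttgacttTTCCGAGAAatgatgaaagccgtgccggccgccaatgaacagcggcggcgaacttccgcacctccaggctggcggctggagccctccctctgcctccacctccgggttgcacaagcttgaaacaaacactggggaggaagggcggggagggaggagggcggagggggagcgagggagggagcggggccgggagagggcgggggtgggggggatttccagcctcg
Irf7, chr7:141266425-141266674, minus strand: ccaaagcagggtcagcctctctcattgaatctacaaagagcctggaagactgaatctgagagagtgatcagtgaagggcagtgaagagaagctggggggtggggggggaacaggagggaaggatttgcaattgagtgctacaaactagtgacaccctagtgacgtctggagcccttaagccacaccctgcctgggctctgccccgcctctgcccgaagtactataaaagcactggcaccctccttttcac
Irf8, chr8:120736108-120736357, plus strand: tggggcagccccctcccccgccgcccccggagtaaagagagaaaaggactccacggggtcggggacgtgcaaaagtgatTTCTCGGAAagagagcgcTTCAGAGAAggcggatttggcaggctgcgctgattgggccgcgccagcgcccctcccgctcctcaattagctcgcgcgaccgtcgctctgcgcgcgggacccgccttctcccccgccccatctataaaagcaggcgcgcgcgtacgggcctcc
The gamma-activated sequence stood 90 bases before the start in Irf1, 224 in Irf2, and 171 and 153 in Irf8, and the ISRE core of Irf2 began 241 bases before its start. That ISRE core overlapped a composite element for PU.1 and IRF (GGAA, any 2 bases and GAAA, also searched on both strands), which began 247 bases before the start. The windows of Irf3, Irf4, Irf5, Irf7 and Irf9, and the second windows of Irf1, Irf8 and Irf9, held none of the 3 motifs. Over all 32851 promoter windows of this length, 7.02% held the gamma-activated sequence, 2.98% the ISRE core and 2.30% the composite element. A match is a description of these letters and not a measured binding site.

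The question put to the data was whether microglia and BMDM from the same kind of tumor differ in their set of IRFs. By edgeR's quasi-likelihood test, with p adjusted after Benjamini and Hochberg over all genes, none of the 8 passed (0 higher and 0 lower in BMDM), in a comparison in which 1.93% of all genes tested were called, 1.11% as higher and 0.814% as lower. In simulated counts of this design, the same test called 0% of genes given a log2 fold of 1. It called 32% at a log2 fold of 2 and 74% at 3, so a gene not called may still differ by such a fold. Irf7 alone had an unadjusted p under 0.05 (13.8% of all genes tested did), and DESeq2 called 1 of the 8, Irf7, as higher, where it called 3.65% of all genes as higher. Irf7 was also the 1 IRF gene called with limma-voom quality weights, with no filter and with a replicate block, fits in which 6.46%, 1.29% and 9.13% of all genes were called as higher. No IRF gene had libraries that separated fully between the groups, while 13% of all genes tested did. Irf7, Irf1 and Irf4 had the largest fitted differences, all toward BMDM, and Irf8, Irf9 and Irf2 had the smallest.

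**Figure D1:**
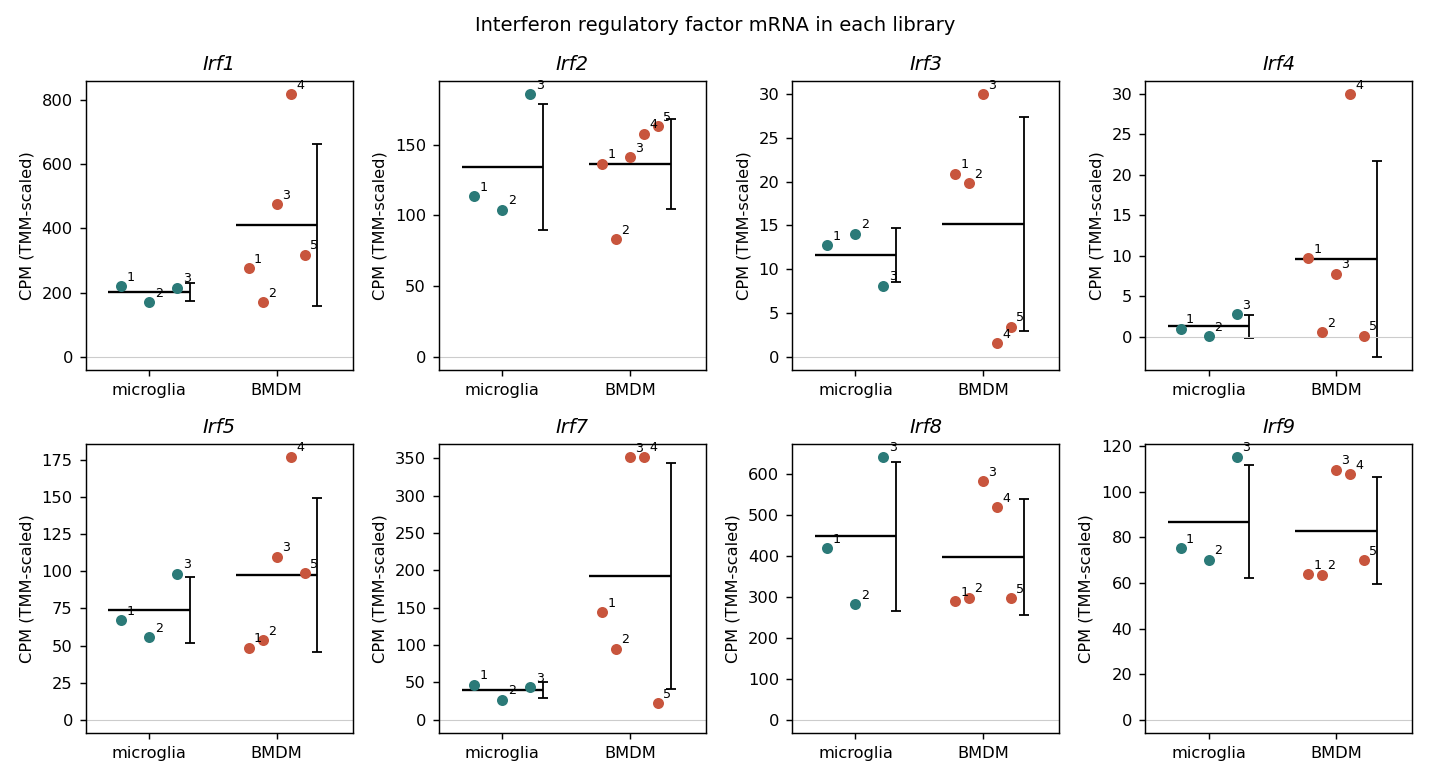
CPM (vertical axes, TMM-scaled) of the 8 IRF genes in each library, microglia in green and BMDM in red, with numbers naming the libraries, lines at group means and bars giving SD. Irf7 was higher in BMDM 1 to 4 than in any microglia library and lower in BMDM 5, whereas the BMDM range of Irf8 lay inside that of microglia.

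Irf7 (chromosome 7, 141262706 to 141266481, minus strand, GRCm38), the main amplifier of type I interferon production, had 46.9, 27.1 and 43.8 CPM in microglia 1, 2 and 3. BMDM 1 to 5 had 144, 95.2, 351, 352 and 22.3 CPM. Thus 4 BMDM libraries lay above every microglia library and BMDM 5 lay below all of them. The group means were 39.3 ± 10.7 CPM (SD, n = 3) in microglia and 193 ± 151 (SD, n = 5) in BMDM, and the log2 fold change, BMDM minus microglia here and throughout, was 2.30 (SE 0.71, adjusted p = 0.135), with a 95% interval of the fold from 1.71 to 14.1 before adjustment. Without BMDM 5 the value was 2.57 (SE 0.48, adjusted p = 0.00994) and passed the test, with 3.38% of all genes called as higher in that fit. With only BMDM 1 to 3 it was 2.34 (SE 0.45, adjusted p = 0.00732), with 6.35% of all genes called as higher. Since these are bulk samples, fewer cells with a transcript and less of it per cell cannot be told apart. BMDM 5 also had the highest share of Gm42418, and its part in the Irf7 value was not tested.

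Irf3 (chromosome 7, 44997648 to 45002848, plus strand), which starts the interferon response from its stored inactive form, was the second least abundant of the 8 genes in CPM. It had 12.7, 14.1 and 8.12 CPM in microglia 1, 2 and 3 and 20.9, 19.8, 29.97, 1.59 and 3.46 CPM in BMDM 1 to 5. BMDM 1 to 3 lay above and BMDM 4 and 5 below all microglia libraries. Those low values rest on 10 counts in BMDM 4 (exact 95% Poisson interval 0.763 to 2.93 CPM) and 25 in BMDM 5 (2.24 to 5.1 CPM), so counting error does not reach the microglia range. Intervals of this kind cover counting error only. The log2 fold change was 0.38 (SE 0.75, adjusted p = 0.907) over all libraries, and 1.02 (SE 0.35, adjusted p = 0.0788) with only BMDM 1 to 3, which also did not pass. BMDM 4 and BMDM 5 are the libraries in which the fewest genes were detected at equal depth, and the part of that in Irf3 was not tested.

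Irf9 (chromosome 14, 55603571 to 55610030, plus strand), the DNA-binding part of ISGF3, had 75.2, 70.2 and 115 CPM in microglia and 63.9, 63.5, 110, 108 and 70.1 CPM in BMDM. BMDM 1, BMDM 2 and, by a small margin, BMDM 5 lay below the microglia libraries, while BMDM 3 and BMDM 4 lay near microglia 3, the highest of all. Means were 86.9 ± 24.7 CPM (SD, n = 3) and 83.0 ± 23.6 (SD, n = 5), and the log2 fold change was -0.07 (SE 0.35, adjusted p = 0.97), with an interval of the fold from 0.570 to 1.6. Over the alternative settings its sign changed.

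Irf1 (chromosome 11, 53770014 to 53778374, plus strand), the interferon gamma-induced activator, had 220.0, 170.4 and 215 CPM in microglia 1, 2 and 3. BMDM 1 to 5 had 276, 170.3, 474, 817 and 318 CPM. Microglia libraries were close together, with an SD of 13.5% of their mean, and BMDM libraries were spread over an SD of 61.2% of theirs. BMDM 2 stood just below the lowest microglia library and the other 4 BMDM libraries above the highest. The fitted fold was 2.04 (log2 fold change 1.03, SE 0.48, adjusted p = 0.369; 95% interval of the fold 0.995 to 4.17), without BMDM 4 the log2 fold change was 0.60, and with only BMDM 1 to 3 it was 0.62 (SE 0.36, adjusted p = 0.274).

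Irf2 (chromosome 8, 46739732 to 46847458, plus strand), the mostly repressive partner of Irf1 at shared sites, had 114, 104 and 186 CPM in microglia and 136, 83.1, 141, 158 and 163 CPM in BMDM. Microglia 3 was the highest of the 8 libraries and BMDM 2 the lowest, so the groups overlapped. Its log2 fold change was 0.02 (SE 0.36, adjusted p = 0.992), with an interval of the fold from 0.596 to 1.73, and its sign changed between settings. Irf1 and Irf2 were also compared within each library, where a ratio of counts needs no scaling. Irf1 exceeded Irf2 by 1.94-fold, 1.64-fold and 1.16-fold in microglia 1 to 3 and by 2.03-fold, 2.05-fold, 3.36-fold, 5.17-fold and 1.95-fold in BMDM 1 to 5. Every BMDM ratio was above every microglia ratio, narrowly so for BMDM 5 against microglia 1. The difference of mean log2 ratios was 0.80, and an exact two-sided permutation test over libraries gave p = 0.0893 (adjusted p = 0.321 over 4 ratios), where 0.0179 is the smallest p that 56 arrangements allow.

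**Figure D2:**
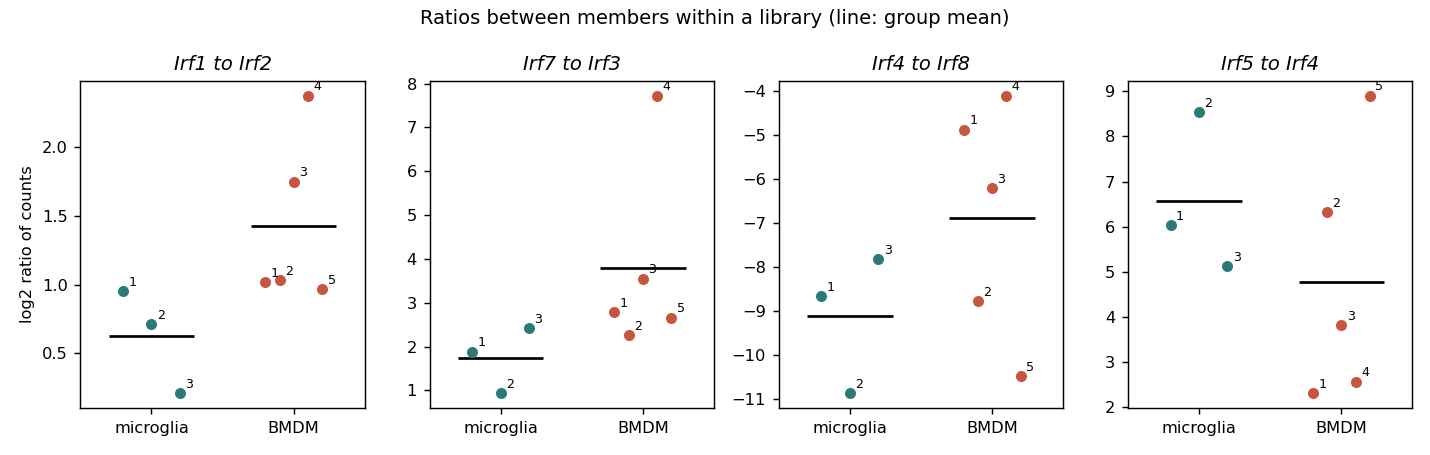
Log2 ratios of counts between pairs of IRF genes in each library (vertical axes), with lines at group means and numbers naming the libraries. The Irf1 to Irf2 ratios separate the groups without overlap, and the Irf7 to Irf3 ratio of BMDM 4 lies far above the others at 7.72.

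The other ratios overlapped between groups. Irf7 to Irf3, both driven by nucleic acid sensing, gave log2 ratios of 1.88, 0.94 and 2.42 in microglia and 2.78, 2.26, 3.55, 7.72 and 2.66 in BMDM, with a mean difference of 2.05 (exact permutation p = 0.161, adjusted p = 0.321). Only BMDM 2 fell within the microglia range, and without BMDM 4 the difference was 1.07. Irf4 to Irf8, the related pair that shares PU.1, differed by 2.23 (exact permutation p = 0.268, adjusted p = 0.357). Irf5 to Irf4, which compete for MyD88, differed by -1.78 (exact permutation p = 0.393, adjusted p = 0.393). Without microglia 2, which had 1 count of Irf4, these differences were 1.35 and -0.80. Without BMDM 5, which also had 1, they were 3.12 and -2.81.

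Irf5 (chromosome 6, 29526625 to 29541871, plus strand), which drives inflammatory cytokine genes, had 66.9, 55.7 and 98.6 CPM in microglia 1, 2 and 3. BMDM had 48.5, 53.8, 110, 177 and 98.8 CPM. BMDM 1 and BMDM 2 lay below every microglia library and the other 3 above, BMDM 5 only just. The log2 fold change was 0.40 (SE 0.44, adjusted p = 0.799) and became 0.058 without BMDM 4 and -0.042 with only BMDM 1 to 3. Exons of Irf5 share 411 bases with those of Tnpo3 on the opposite strand, and the sources used here do not say whether counting used strand, so reads of the pair may be divided wrongly. Tnpo3 had 111 ± 22.1 CPM (SD, n = 3) in microglia and 121 ± 101 (SD, n = 5) in BMDM. Smaller shared stretches lie between Irf9 and Rnf31 (123 bases, same strand), Irf1 and Gm17334 (135, opposite, with 0 counts of Gm17334), Irf3 and Bcl2l12 (88, opposite), and Irf7 and Phrf1 (45, opposite).

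Irf8 (chromosome 8, 120736358 to 120756694, plus strand), a factor on which microglia and monocytes depend, was the most abundant IRF in microglia, with 419, 283 and 642 CPM in libraries 1, 2 and 3. BMDM had 289, 298, 583, 519 and 298 CPM. The BMDM range lay inside the microglia range. Means were 448 ± 182 CPM (SD, n = 3) and 397 ± 142 (SD, n = 5), which gave -0.17 as log2 fold change (SE 0.42, adjusted p = 0.926). The 95% interval of the fold, 0.480 to 1.64 before adjustment, leaves room for a difference in either direction. With single libraries left out, the log2 fold change of Irf8 ran from -0.45 to 0.10.

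Irf4 (chromosome 13, 30749226 to 30766976, plus strand), which takes part in alternative activation and in dendritic and B cell development, was the least abundant. Microglia 1, 2 and 3 had 19, 1 and 25 counts, or 0.999, 0.101 and 2.78 CPM. BMDM 1 to 5 had 73, 5, 68, 188 and 1 counts, or 9.72, 0.616, 7.78, 29.9 and 0.138 CPM. BMDM 1, 3 and 4 exceeded all microglia libraries by more than counting error (lowest bound 6.04 CPM, in BMDM 3, against an upper bound of 4.11 CPM in microglia 3), while BMDM 2 and BMDM 5 lay within the microglia range. The fitted log2 fold change was the largest of the 8, at 2.89, and also the least certain (SE 1.45, adjusted p = 0.407; 95% interval of the fold 0.875 to 63.0). It was 1.85 without BMDM 4 and 3.95 without microglia 3, and neither passed. Irf4 met the filter on low counts only with its BMDM counts, so this largest fold belongs to a gene admitted through the group in which it is high.

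Irf4 is also a gene of dendritic cells, so markers of these and of other cells are given beside it. The 10 conventional dendritic cell markers summed to 139 to 320 CPM in microglia and 52.7 to 165 in BMDM, mostly from Fscn1, which had 134 to 315 CPM in microglia. None was at 0 in all libraries, and Cd209a was detected only in BMDM 3 and BMDM 4. Zbtb46, a factor of conventional dendritic cells, had 0.946, 0.101 and 3.11 CPM in microglia and 1.46, 0.493, 3.20, 9.87 and 0 CPM in BMDM. Ccr7, a receptor of migrating dendritic cells, had 0 to 0.603 CPM in microglia and 40.1, 5.54, 25.3, 29.0 and 0.276 CPM in BMDM. Like Irf4, each was lowest in BMDM 5 and next lowest in BMDM 2 among BMDM libraries. Other markers of the list had another pattern. Xcr1, a chemokine receptor of conventional dendritic cells, had 14.8, 6.53, 1.83, 0 and 0 CPM in BMDM 1 to 5, and Clec9a, a receptor for dead cells, had 5.59, 1.23, 1.03, 0 and 0 CPM. Both were at 0 in BMDM 4, where Irf4 was highest. These 4 genes were singled out after their values were seen. The 10 T and NK cell markers summed to 4.34 to 9.20 CPM in microglia. In BMDM 1 to 5 they summed to 103, 41.9, 65.5, 67.6 and 15.5 CPM. Like Irf4, this sum was lowest in BMDM 5 and next lowest in BMDM 2, but it was highest in BMDM 1 and not in BMDM 4. Summed levels of 8 plasmacytoid dendritic cell markers were 406 to 429 CPM in microglia and 177 to 430 in BMDM, mostly from Tcf4. For 8 B and plasma cell markers they were 22.7 to 91.4 and 6.22 to 36.0 CPM, in microglia mostly from Ighm, with Mzb1 at 0 in all libraries. The part of such cells in the Irf4 value was not tested.

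**Figure D3:**
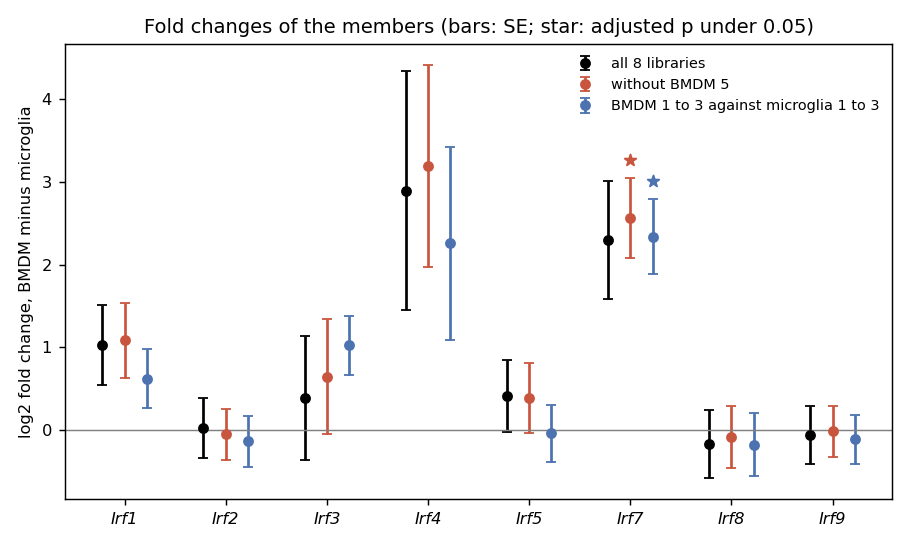
Log2 fold change of each IRF gene, BMDM minus microglia, with SE bars, over all 8 libraries (black), without BMDM 5 (red) and with BMDM 1 to 3 alone (blue); a star marks an adjusted p under 0.05. Irf7 is starred in both reduced sets, and no other IRF gene is starred.

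The level of each gene relative to the other IRFs was read on the CPM scale, since 3′ libraries give about 1 tagged end per transcript, and again per kilobase of exon. In microglia the CPM order was Irf8, Irf1, Irf2, Irf9, Irf5, Irf7, Irf3 and Irf4. Ranges of neighbouring genes overlapped between Irf1 and Irf2, Irf2 and Irf9, and Irf9 and Irf5, and were apart elsewhere, although each gene was above its neighbour in 3 of 3 libraries. In BMDM the order was Irf1, Irf8, Irf7, Irf2, Irf5, Irf9, Irf3 and Irf4, with ranges apart only between Irf9 and Irf3. Irf1 was above Irf8 in only 2 of 5 BMDM libraries, BMDM 4 and BMDM 5. By mean, Irf7 thus stood at rank 6 in microglia and rank 3 in BMDM, where it was above Irf2 in 4 of 5 libraries. Per kilobase of exon, Irf5 stood ahead of Irf2 and Irf9 in both groups, and the ranges of Irf8 and Irf1 overlapped in microglia. On that scale Irf1 was above Irf8 in 5 of 5 BMDM libraries, although their ranges overlapped.

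Summed over the 8 genes, IRF mRNA reached 955, 724 and 1312 CPM in microglia and 989, 785, 1807, 2161 and 974 CPM in BMDM. BMDM 3 and BMDM 4 stood above the microglia range and the other 3 BMDM libraries inside it. The share of these counts held by Irf8 was 39.0% to 49.0% in microglia and 24.0% to 38.0% in BMDM, without overlap. Irf7 held 3.34% to 4.91% in microglia, 12.1% to 19.5% in BMDM 1 to 4 and 2.28% in BMDM 5. For Irf1 the share was 16.4% to 23.5% in microglia and 21.7% to 37.8% in BMDM. Shares of this kind sum to a fixed total, so a larger share of one gene lowers the others.

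**Figure D4:**
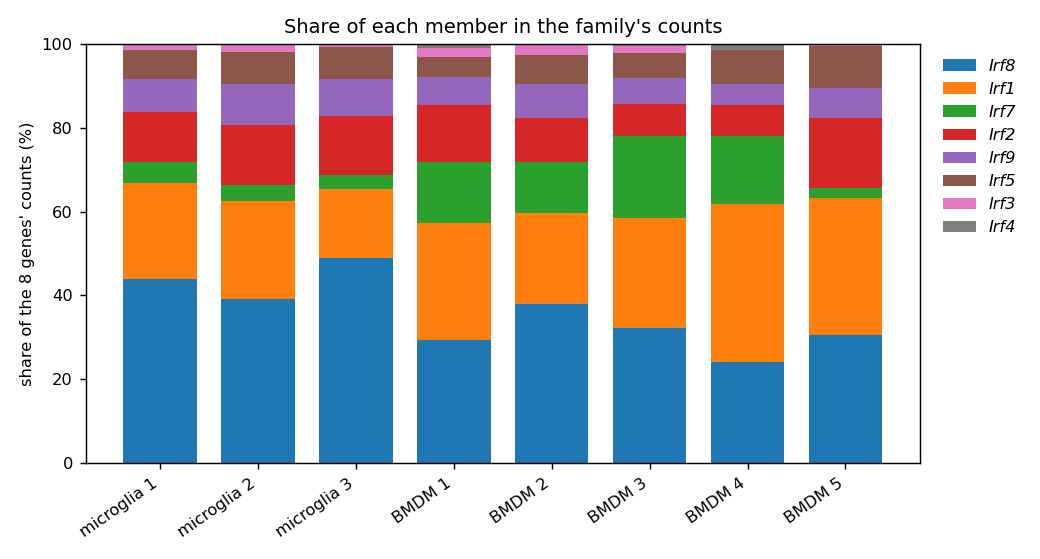
Share of each IRF gene in the summed counts of the 8 genes (vertical axis, percent) for each library. Irf8 takes the largest share in every microglia library and in BMDM 1 to 3, and Irf1 does in BMDM 4 and BMDM 5. The green Irf7 segment is widest in BMDM 1 to 4, at 12.1% to 19.5%.

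Levels of several IRF genes varied together between libraries. BMDM 4 had the highest value of all 8 libraries for 4 of the 8 genes, microglia 3 for 3 and BMDM 3 for 1. Pearson's r of log2 CPM over the 8 libraries was 0.96 for Irf8 with Irf9, 0.88 for Irf4 with Irf7 and 0.84 for Irf1 with Irf5, and it was negative for Irf3 with Irf5 (-0.70) and with Irf1 (-0.53). After each group's mean was taken off, the same r values were 0.96, 0.87, 0.88, -0.70 and -0.58. These values describe 8 libraries that share depth and RNA quality between genes, and carry no test. Among 4790 named genes averaging 20 CPM or more, those most like Irf7 in pattern were Fam129b (r = 0.99), Shisa5 (0.98) and Gadd45g (0.98). For Irf1 they were Vasp (0.99), Tomm34 (0.98) and Ifi213 (0.97), for Irf5 Cyth4 (0.97), Capns1 (0.97) and Csrnp1 (0.96), and for Irf4 Samd9l (0.96), Ccl5 (0.92) and Tmem127 (0.92). Irf8 was followed by Irf9 (0.96), Cdc42se1 (0.96) and Lamtor1 (0.96), and Irf9 by Efhd2 (0.98), Irf8 (0.96) and Uba7 (0.96). Genes like Irf2 included Cyp4v3 (0.96) and Glipr1 (0.94), and Irf3 was most like Ppp3r1 (0.97), Qdpr (0.97) and Sertad2 (0.96).

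Genes that act before, with and after the IRFs were read from the same fit in 8 lists, of which 7 had genes that passed the filter. Of 107 listed genes tested, 4 were higher in BMDM and 0 lower, against 1.93% of all genes tested that were called. With only BMDM 1 to 3 these counts were 18 and 9, where 6.35% of all genes were higher and 8.11% lower. Leaving out any 1 microglia library left between 0 and 2 higher. Without BMDM 3 there were 2 higher, and without BMDM 5 there were 16 higher and 4 lower, where 3.38% and 3.79% of all genes were. For the list counts below, 13.8% of all genes tested had an unadjusted p under 0.05, and DESeq2 called 3.65% higher.

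Interferon mRNA itself was scarce. Over all 8 libraries together Ifng had 68 counts, Ifnb1 16 and Ifnl2 11, and none passed the filter. Ifna1, Ifna2, Ifna4, Ifna5 and Ifnl3 had 0 counts, which allows up to 0.0397 CPM over the pooled libraries (3 of 75652801 counts, without TMM scaling), and the alpha genes are near-identical copies whose reads may be lost in counting. Of 12 receptor and JAK-STAT genes 0 were called, with a median log2 fold change of 0.36 against 0.08 for all genes tested. At an unadjusted p under 0.05 there was 1, Socs1, a feedback inhibitor named after its values were seen, with 11.5 to 17.9 CPM in microglia and 20.3 to 196 in BMDM (log2 fold change 2.20, SE 0.69, adjusted p = 0.144). DESeq2 also called 1 of the 12, Socs1. Ifnar1, a chain of the type I interferon receptor, had a log2 fold change of 0.57 (adjusted p = 0.629, SE 0.40). Its partner chain Ifnar2 was at -0.03 (adjusted p = 0.991, SE 0.43), with a sign that changed between scalings. The log2 fold change of Ifngr1, a chain of the interferon gamma receptor, was -0.77 (adjusted p = 0.502, SE 0.44). It was -1.31 when BMDM 1 to 3 alone were used (adjusted p = 0.0173, SE 0.31), so that Ifngr1 was called lower there, and Socs1 was the 1 gene of the list called higher. Stat2, a part of ISGF3, was at 0.64 (adjusted p = 0.569, SE 0.40).

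None of 22 sensors, adaptors and kinases that activate IRF3, IRF5 and IRF7 was called (0 higher and 0 lower; 5 at an unadjusted p under 0.05, 0 by DESeq2), and the median was -0.48. With only BMDM 1 to 3, 4 were lower, namely Traf3, Chuk, Irak1 and Ticam1, named after their values were seen, in a fit that called 8.11% of all genes lower. For Tbk1, the kinase of IRF3, the log2 fold change was -0.72 (adjusted p = 0.458, SE 0.39). For Myd88, the adaptor shared by IRF5 and IRF7, it was 0.54 (adjusted p = 0.598, SE 0.36).

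Among 26 target genes of ISGF3 and IRF7, 22 had a positive fold (53.1% of all genes tested did) and 0 were called. At an unadjusted p under 0.05 there were 10 (13.8% of all genes tested were). DESeq2 called 4 higher (3.65% of all genes were), namely Isg15, Mx1, Zbp1 and Bst2, the last 3 named after their values were seen. The median was 0.81, or 0.57 with only BMDM 1 to 3, when 7 were higher and 0 lower (6.35% and 8.11% of all genes were). Isg15, a ubiquitin-like modifier, had 134, 124 and 83.5 CPM in microglia and 513, 588, 657, 284 and 118 CPM in BMDM. As with Irf7, BMDM 1 to 4 lay above all microglia libraries and BMDM 5 did not, and the value was 1.93 (SE 0.53, adjusted p = 0.0865). This held also for Isg20, Rtp4, Bst2, Oas1a and Ifi27l2a. In contrast, Mx1, Zbp1, Oas3 and Ifit1 were above all microglia libraries in every BMDM library, BMDM 5 included. Groups did not overlap for 4 of the 26 genes and for 13% of all genes tested. Rsad2 was highest in BMDM 5. All these but Isg15 are named after their values were seen. Ifit3, an antiviral protein, was at 0.26 (SE 0.45, adjusted p = 0.888) and turned to -0.046 without microglia 2.

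Of 18 targets of IRF1 and interferon gamma, Ciita, the master regulator of class II genes, was the 1 gene called higher in BMDM (log2 fold change 2.68, SE 0.59, adjusted p = 0.0275), and 0 were lower. At an unadjusted p under 0.05 there were 8 of 18 (13.8% of all genes tested were). DESeq2 called 6 higher (3.65% of all genes were), Ciita with Cxcl9, Nos2, Psmb8, Psmb9 and Psmb10, of which all but Ciita are named after their values were seen. Ciita had 12.7, 9.45 and 5.01 CPM in microglia and 58.7, 60.0, 98.3, 62.7 and 11.6 CPM in BMDM, so BMDM 5 was again inside the microglia range. Its call was lost without any 1 of microglia 1 to 3 or BMDM 1 to 4 (adjusted p from 0.0563 to 0.181), with limma-voom (0.0953) and with library totals alone (0.062). The median of the list was 0.64, or 0.31 with only BMDM 1 to 3, when 5 were higher and 0 lower (6.35% and 8.11% of all genes were). Cxcl10 and Gbp2, both induced by interferon gamma, had values of -0.07 (adjusted p = 0.976, SE 0.46) and 0.10 (adjusted p = 0.959, SE 0.36), with signs that changed between settings. As with Ciita, BMDM 1 to 4 but not BMDM 5 were above all microglia libraries for Cxcl9, Psmb8 and Psmb9. Every BMDM library was above them for Nos2 and Psmb10, and Tap1, named after its values were seen, was highest in BMDM 5.

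Of 6 tested IRF5 cytokine targets, Il1b was higher in BMDM (log2 fold change 2.61, SE 0.51, adjusted p = 0.0167), 0 were lower and the median was -0.73. At an unadjusted p under 0.05 there were 3 (13.8% of all genes tested were). Besides Il1b these were Tnf (-1.42, SE 0.52, adjusted p = 0.210) and Il1a (-1.67, SE 0.62, adjusted p = 0.222), named after their values were seen. The call of Il1b was lost without any 1 microglia library (adjusted p from 0.0969 to 0.108). In BMDM 5 it had 1169 CPM, against 226 to 297 in microglia. Of 11 tested alternative activation genes linked to IRF4, all 11 had a positive fold (53.1% of all genes tested did). Of the 11, 2 were called higher (1.11% of all genes tested were) and 0 lower, with a median of 3.19. With only BMDM 1 to 3, 3 of 10 were higher (Chil3, Il4ra and Clec10a) and 1 was lower, Kdm6b, a histone demethylase at -1.95 there (adjusted p = 0.0182) and at 0.82 over all libraries (adjusted p = 0.823). Arg1 had 364, 676, 153, 113 and 1131 CPM in BMDM 1 to 5, and Mrc1 had 142, 345, 28.7, 15.9 and 351 CPM. Both were highest in BMDM 5, where Irf4 was lowest among BMDM libraries. Stat6 and Kdm6b were highest in BMDM 4, as Irf4 was. Among BMDM libraries, the other tested genes of the list peaked in BMDM 1, BMDM 2 or BMDM 5. Clec10a, Kdm6b, Arg1, Mrc1 and Stat6 are named after their values were seen. The 2 genes called higher over all libraries were Il4ra, the interleukin 4 receptor chain (1.91, SE 0.40, adjusted p = 0.0218), and Chil3, a chitinase-like protein (6.53, SE 1.15, adjusted p = 0.00909). Il4ra lost its call without any 1 microglia library or BMDM 3 (0.0545 to 0.190), and Chil3 without microglia 3 (0.092). In BMDM 5, Il4ra had 354 CPM, against 90.8 to 139 in microglia. Chil3 had counts in microglia 2 alone among microglia, so its fold depends on that library. Chil3 is also 1 of the 10 markers of monocyte-derived macrophages used above.

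Of 12 DNA-binding partners and corepressors 0 were called, 4 had an unadjusted p under 0.05, DESeq2 called 1 higher, Spi1, and the median was 0.23. With only BMDM 1 to 3, 1 was higher, Spi1 again, and 3 were lower, Runx1, Ikzf1 and Irf2bpl, named after their values were seen. Spi1, which encodes PU.1, had 99.5, 82.9 and 119 CPM in microglia and 215, 239, 424, 368 and 81.1 CPM in BMDM (log2 fold change 1.40, SE 0.49, adjusted p = 0.186). Here too BMDM 5 lay below the microglia libraries and BMDM 1 to 4 above them. Batf3, the partner of IRF8 in dendritic cells, was at 0.53 (SE 0.46, adjusted p = 0.73).

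**Figure D5:**
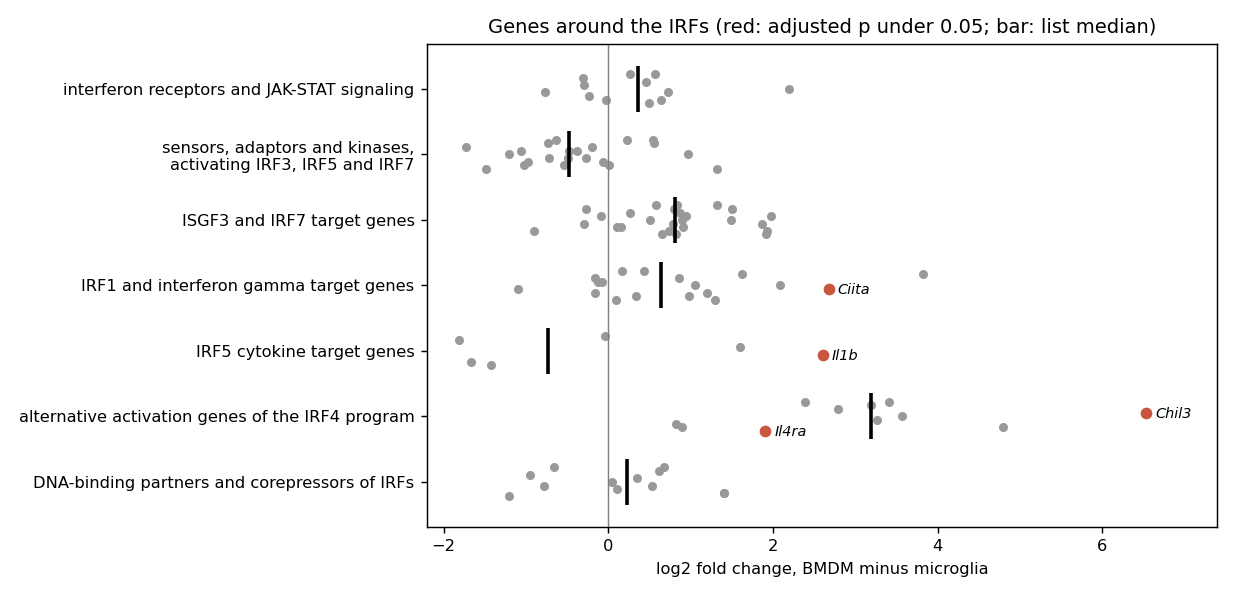
Log2 fold change, BMDM minus microglia, of every tested gene in the 7 lists (horizontal axis), with genes at an adjusted p under 0.05 in red and a bar at each list's median. The 4 red genes are Ciita, Il1b, Il4ra and Chil3, and medians run from -0.73 for IRF5 cytokine targets to 3.19 for alternative activation genes.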

How the data were processed

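Whole-number read counts per gene were deposited by the authors in 1 table, made from QuantSeq 3′ FWD libraries read as single ends of 75 bases, per the labels' protocols. Named in the submitters' processing notes, without versions or settings, are the build mm10 and the tools STAR, featureCounts, cutadapt, FastQC and DESeq2. Strand use and the treatment of reads with several matches are not given in the sources used here. All 55450 identifiers were found in GENCODE M21 (GRCm38), the source of positions and exon lengths. Counts were tested with edgeR 4.0.16 (R 4.3.3) after filterByExpr (minimum count 10, minimum total 15), TMM scaling and robust quasi-likelihood fits, with adjusted p over all 16467 genes and a threshold of 0.05. Standard errors come from the F statistic. Replicates were checked for repeated deposits, and all differed by more than counting error (chi-square per degree of freedom at least 21.1). Ratios between genes used raw counts plus 0.5. Log2 CPM used a prior count of 2. Alternatives were DESeq2 1.42.0, limma 3.58.1 voom with and without quality weights, other scalings and filters, a replicate block, BMDM 1 to 3 alone and each library left out. The scripts were tested on simulated data. Named genes were the 8 IRFs, up to 4 called genes per list and direction, 13 genes fixed by name and the 3 closest patterns per IRF. Some items that this rule names are not reported here. The IRF genes, lists and tests were chosen with earlier results of these data known.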

Additional observations from a re-analysis of the deposited data

Results flagged for a closer look

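The within-library log2 ratio of Irf7 to Irf3 in BMDM 4 was 7.72, far from the 2.26 to 3.55 of the other 4 BMDM libraries. It rests on 10 counts of Irf3 and 2211 of Irf7. The same check of a single far value was made on the 8 genes, 4 ratios and their summed level, and chance alone flags about 1 in 20 groups.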

How the results depend on the processing

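The count of IRF genes higher in BMDM, 0 with all libraries, was 1 with DESeq2, limma-voom with quality weights, no filter or BMDM 1 to 3 only, and 0 to 1 with single libraries left out (1 without BMDM 5). Each time the gene was Irf7, at 2.39, 2.07, 2.27, 2.34 and, without BMDM 5, 2.57. Over all left-out libraries its value ran from 1.97 to 2.57, and of these fits only the one without BMDM 5 called it. No IRF gene was lower in any setting. Irf4 did not pass the stricter filter and has no value there. With a replicate block on the numbers 1 to 3 the count was 1, Irf7 at 2.15 (adjusted p = 0.000219 by the same edgeR test), Irf2 -0.14, Irf5 -0.11, Gbp2 -0.034, and 25 listed genes were higher and 16 lower. Same-numbered libraries correlated at 0.14, 0.090 and 0.24 in their deviations, not all above 0.1, and the numbers were not taken to pair them. Each of microglia 1 to 3 and BMDM 1 to 3 nevertheless correlated best with its own number, so whether the numbers mark pairs is not settled here. Signs turned for Irf2 with no filter (-0.0053), BMDM 1 to 3 (-0.14) and over left-out libraries (-0.17 to 0.24), Irf3 with limma-voom (-0.12; left out -0.010 to 0.67), Irf5 with BMDM 1 to 3 (-0.042), Irf8 (left out -0.45 to 0.10), and Irf9 with RLE factors (0.025), library totals (0.080), DESeq2 (0.025), the stricter filter (0.041) and libraries left out (-0.23 to 0.11). They also turned for Cxcl10 in those 4 settings (0.0055, 0.022, 0.0056, 0.012), with BMDM 1 to 3 (0.083) and libraries left out (-0.51 to 0.32), for Ifnar2 in those 4 (0.064, 0.10, 0.064, 0.082), without Gm42418 and mitochondrial rRNA (0.034) and left out (-0.40 to 0.25), for Gbp2 with quality weights (-0.15; left out -0.041 to 0.26), and for Ifit3 (left out -0.046 to 0.66). The Irf1 to Irf2 difference was 0.56 to 0.96 with libraries left out, and without BMDM 4 the exact permutation p was 0.0286. That is the smallest p that this smaller set of libraries allows, and it is not adjusted over the 4 ratios. Listed genes higher (4) and lower (0) were 16 and 0 with DESeq2, 24 and 11 with quality weights, 15 and 2 with no filter, 18 and 9 with BMDM 1 to 3, and 0 to 16 and 0 to 4 with libraries left out. The causes were not tested. Over all genes, 183 higher and 134 lower became 601 and 313 with DESeq2, 1063 and 1668 with quality weights, 141 and 250 with limma-voom, 403 and 318 with no filter, 1477 and 1767 with the block, 1028 and 1312 with BMDM 1 to 3, and 58 to 536 and 46 to 602 with libraries left out. The median of all genes was 0.08, and moved to 0.20 with library totals and -0.23 with limma-voom.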
